A study of Mus musculus with 18 samples.

Results

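The imprinted Dlk1-Dio3 cluster lies on the distal part of mouse chromosome 12 and was followed here through 6 genes, Dlk1, Meg3, Rtl1, Rian, Mirg and Dio3, chosen by name from the 55450 genes of a TPM table (a read abundance scaled by transcript length and by the total of the sample). All 6 were found. Messenger RNA was sequenced from P19 cells, a mouse embryonic carcinoma line, of 3 genotypes with 6 samples each: WT, Dicer(+/+); HetKO, Dicer(+/-); and HM, Dicer(HM/-). HetKO was a clone in which a guide RNA pair truncated 1 Dicer1 allele. HM was derived from HetKO by an allele-specific knock-in of a hotspot missense change in the RNase IIIb domain on the remaining allele, so that HM carried the truncated allele as well. No drug treatment or time course separated the samples. Each genotype was a single line or clone, so genotype and clonal history cannot be told apart, and nothing in the labels says whether the 6 samples of a line came from separate cultures. P-values therefore measure only the spread between these samples, which may be technical.

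In an imprinted cluster, each gene is transcribed mainly from the chromosome of 1 parent. At Dlk1-Dio3 the maternal chromosome makes a run of long noncoding RNAs, Meg3, Rian and Mirg, which carry small nucleolar RNAs and one of the largest groups of miRNAs in the mouse genome. The paternal chromosome makes 3 proteins: Dlk1, a transmembrane relative of the Notch ligands; Rtl1, a retrotransposon-derived protein needed in the placenta; and Dio3, the deiodinase that inactivates thyroid hormone. A methylated control region between Dlk1 and Meg3 sets this choice, and the activity of the maternal noncoding RNAs is known to vary between pluripotent cell lines. The deposited values do not separate the 2 parental alleles, so maternal and paternal below are names taken from this background.

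The annotation (GRCm38) placed Dlk1 at chr12:109452823-109463336, Meg3 at chr12:109541001-109571726, Rian at chr12:109603940-109661716, Mirg at chr12:109729764-109749460 and Dio3 at chr12:110279068-110281097, all on the plus strand. Rtl1 alone lay on the minus strand, at chr12:109589193-109600330. From the start of Dlk1 to the end of Dio3 the cluster spanned 828 kb, and Meg3, Rian and Mirg together occupied 208 kb of it. Dicer1, the edited gene, is on the same chromosome, 4.7 Mb before Dlk1.

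**Figure D1:**
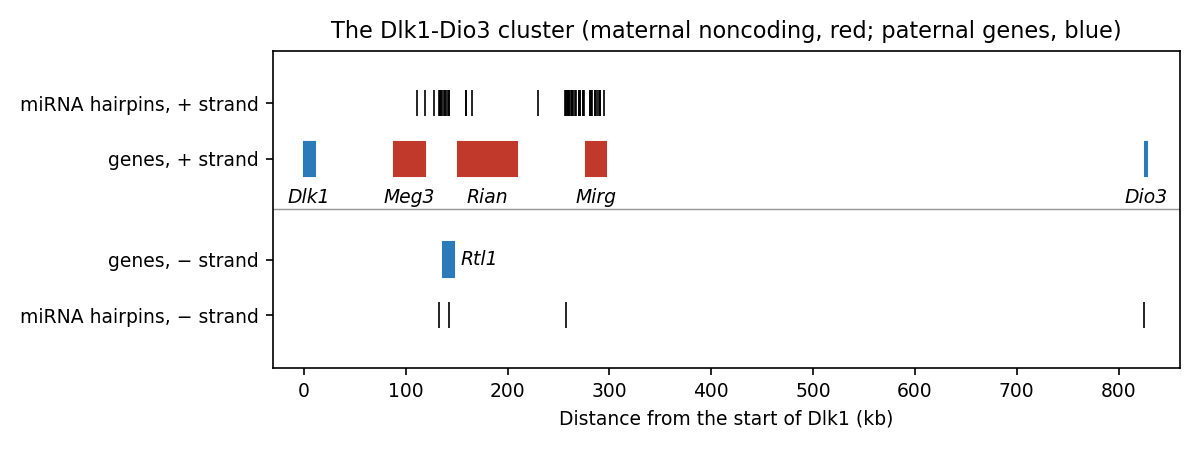
Map of the cluster, with distance from the start of Dlk1 in kb on the horizontal axis and the strands on the vertical axis. Boxes are gene spans (red, maternal noncoding; blue, paternal protein coding) and ticks are the 58 annotated miRNA hairpins, 54 of which lie on the plus strand between the start of Meg3 and the end of Mirg.

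RefSeq (GRCm38.p6) places 58 miRNA hairpins and 114 mature miRNAs in the cluster, and 54 of the hairpins are on the strand of Meg3, Rian and Mirg between the start of the first and the end of the last. Of the plus-strand hairpins, 14 lay within the annotated span of Mirg, 3 within Rian, 1 within Meg3 and 6 opposite Rtl1, and 23 lay between Rian and Mirg. Mature miRNAs are not captured by poly(A) libraries, and all 67 rows annotated as miRNA inside the cluster were at 0 TPM in every sample, as were the 23 snoRNA rows. Sequences of some of the miRNAs are shown because they lie on the plus strand between the start of Meg3 and the end of Mirg. Several of them lie opposite Rtl1 or between Rian and Mirg, outside the annotated spans of Meg3, Rian and Mirg. Capitals mark the seed, bases 2 to 8, written 5′ to 3′. From the span of Meg3 the following is shown.
miR-770-3p: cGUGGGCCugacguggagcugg

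Opposite Rtl1, 11 mature miRNAs are encoded on the plus strand, and all 11 have a perfect complement in the annotated Rtl1 transcript, which is how they are known to direct its cleavage. The next 5 represent them.
miR-431-5p: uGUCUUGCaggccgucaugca
miR-433-3p: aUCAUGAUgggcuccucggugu
miR-127-3p: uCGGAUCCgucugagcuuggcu
miR-434-3p: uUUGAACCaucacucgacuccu
miR-136-5p: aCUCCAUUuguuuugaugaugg

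From Rian, from the stretch between Rian and Mirg, and from Mirg, sequences were chosen for shared seeds or as examples. Among the mature miRNAs of the cluster, 9 seeds were shared by 2 miRNAs each. One such pair, miR-370-5p within Rian and miR-1193-3p beyond its end, has the seed AGGUCAC, and another, miR-379-3p and miR-411-3p, has AUGUAAC.
miR-370-5p: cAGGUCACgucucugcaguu
miR-370-3p: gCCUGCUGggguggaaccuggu
miR-1193-3p: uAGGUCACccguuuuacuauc
miR-379-3p: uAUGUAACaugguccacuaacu
miR-411-3p: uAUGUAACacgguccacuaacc
miR-134-5p: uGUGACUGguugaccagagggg
miR-154-3p: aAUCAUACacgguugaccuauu
miR-410-3p: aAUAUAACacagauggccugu

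RefSeq gives a pair of promoters for Meg3. The one at the first start, 250 bases before to 50 after its start (chr12:109540746-109541045, plus strand, GRCm38.p6), is shown. It was chosen because Meg3 was the cluster gene whose level changed most in HM. Capitals mark matches, on either strand, to TATAAA (the TATA box, a pair of overlapping matches), CCAAT, TGACGTCA (the cyclic AMP response element) and TGCCGC.
Meg3 promoter: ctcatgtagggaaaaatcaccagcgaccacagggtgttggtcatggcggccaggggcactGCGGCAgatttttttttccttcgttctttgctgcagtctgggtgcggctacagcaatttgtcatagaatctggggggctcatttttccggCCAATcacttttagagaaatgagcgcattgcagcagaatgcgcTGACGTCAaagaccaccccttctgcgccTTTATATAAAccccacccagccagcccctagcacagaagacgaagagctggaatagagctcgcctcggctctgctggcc

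Of 32851 RefSeq promoters of this length, TATAAA was present in 13.6%, CCAAT in 37.4%, TGACGTCA in 1.79% and TGCCGC in 11.6%. TATAAA stood 25 bases before the Meg3 start and TGACGTCA 57 bases before it. The other Meg3 window (chr12:109545148-109545447) held 1 CpG and none of these motifs. The window shown held 13 CpG dinucleotides, against a median of 7 over all promoters. Among the other cluster genes with a RefSeq promoter, Rian held 0, Dlk1 9, Mirg 10 and Dio3 25. A match describes letters only. Methylation and factor binding were not measured in these samples.

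The samples first need a description. The table gives TPM and no read counts, so depth is unknown and no counting interval can be given. All 10 pluripotency markers had a mean of at least 1 TPM in every line, with summed TPM from 3190 to 4160 over the 18 samples, and 7 endoderm markers summed to at most 4.57 TPM, with Afp and Ttr under 0.1 throughout and Gata6 reaching 3.47. Over 7 muscle markers the sums were 7.65 to 12 in WT, 2.26 to 5.81 in HetKO and 10.2 to 15.5 in HM, with Myog at 0 in all samples, and their part in any HetKO result was not tested. Over 7 neuron markers the sums were 124 to 175 TPM in WT and 104 to 186 in HM. Fibroblast sums were 34.1 to 40.5 in WT and 24.3 to 33.8 in HM, and trophoblast sums 12.7 to 14.7 and 16.7 to 27.7. HetKO samples 2 and 5 stood apart. Their summed TPM over 6 trophoblast markers was 86.4 and 73.2, against 8.31 to 18 in the other 4 HetKO samples. Most of this was Eomes, at 80.75 and 67.94 TPM. Cdx2 was at 2.72 and 2.58 TPM against at most 0.15 in WT, and Elf5, Krt7 and Hand1 were at 0 in both. Their summed TPM over 7 fibroblast markers was 10.8 and 11.3 against 37.2 to 40.7, most of it Thy1, and over 7 neuron markers 80.0 in both against 101 to 144, although Dcx of the same list was at 4.2 and 4.51 TPM, against at most 1.12 in WT. Their deviations from the line mean were also alike (r = 0.569 across genes, which are not independent replicates). In bulk RNA, fewer cells of a type and less RNA per cell cannot be told apart. The tests of the cluster genes in HetKO are given below with and without these samples. Other samples were alike in pairs too: HetKO 1 and 4 (r = 0.316), HetKO 3 and 6 (0.278) and WT 1 and 4 (0.347). In HM they were 1 and 4 (0.151), 2 and 3 (0.343), and 5 and 6 (0.31). The other WT samples were not alike (highest r 0.0475). Samples alike in pairs may not be independent, so some tests below are repeated on pair means. WT samples 2 and 5, and 3 and 6, were averaged too although not alike, so pair means also discard replicates there. Dicer1, the edited gene, was at 52.3 ± 2.09 TPM in WT, 48.0 ± 4.1 in HetKO and 40.3 ± 3.18 in HM (SD, n = 6 each). Neither edit removes the whole transcript, so a Dicer1 level is a weak check of the labels. It was lower in HM than in WT (log2 fold change -0.37, limma adjusted p = 0.000251), and in HetKO the value of -0.12 did not pass (adjusted p = 0.207).

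The maternal noncoding RNAs were abundant in WT, fell in HM to 1% or less of the WT mean, and were uneven in HetKO, where their means were also below WT. Rian and Meg3 ranked 341 and 474 by mean TPM among all genes in WT. In HM, Meg3 was listed at 0 in 5 of 6 samples, Rian kept 0.347% of its WT mean and Mirg kept 0.867%. Dlk1 was low in WT and lower still in both Dicer lines, and Rtl1 and Dio3 were under 1 TPM in all 18 samples.

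**Figure D2:**
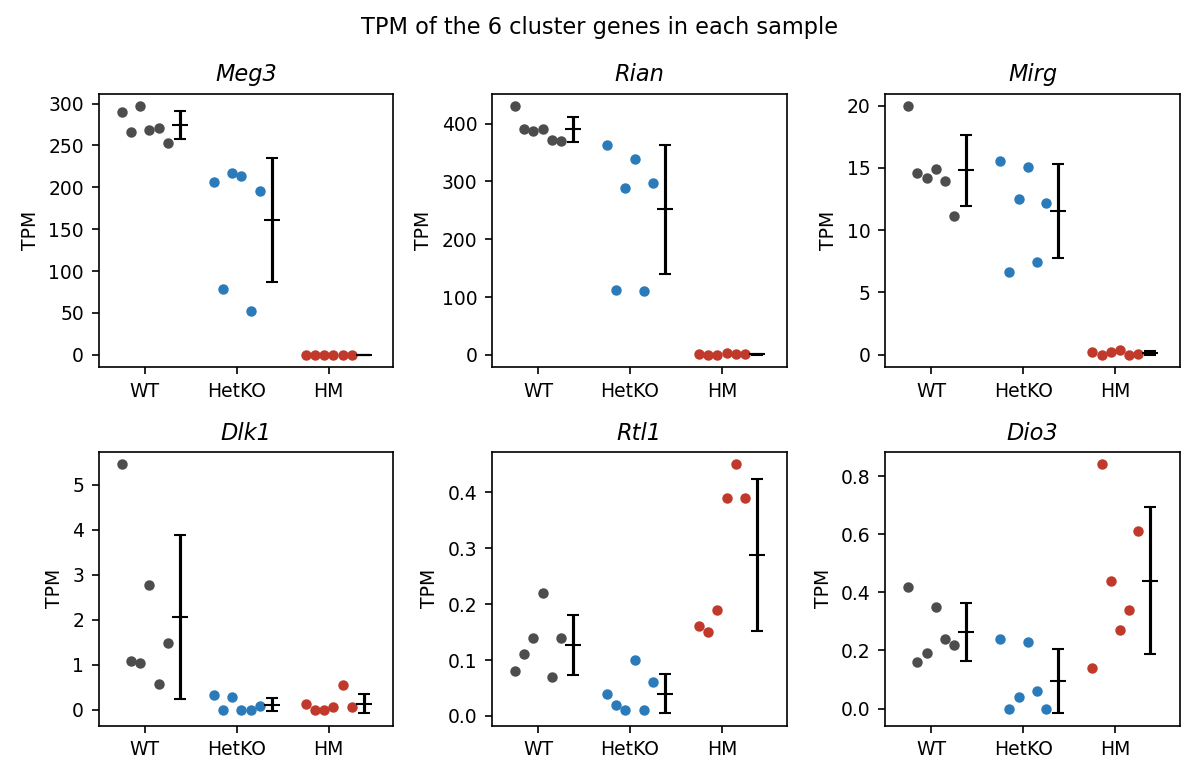
TPM (vertical axes, linear, each panel with its own scale) of the 6 cluster genes in WT, HetKO and HM; each point is 1 sample, in order of replicate number, and the black dash and bar are mean and SD (n = 6). The HM points of Meg3, Rian and Mirg lie at the foot of their panels, and HetKO samples 2 and 5 lie below the other 4 HetKO points in all 3.

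Meg3 (maternally expressed gene 3), a long noncoding RNA, was at 290.53, 266.64, 297.27, 268.21, 271.5 and 252.49 TPM in WT samples 1 to 6. In HetKO it was at 206.47, 79.09, 216.95, 213.45, 52.75 and 196.05 TPM. In HM it was at 0.01 TPM in sample 3 and listed at 0 in the other 5. The 3 lines did not overlap, and HetKO samples 2 and 5 were far below the other HetKO samples.

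Rian, the host of a tandem array of C/D box snoRNAs, was at 430.59, 391.16, 386.75, 391.2, 372.46 and 370.52 TPM in WT. In HetKO it was at 362.3, 113.01, 289.38, 338.24, 110.37 and 297.03 TPM, every sample below every WT sample. In HM it was still listed above 0 in all 6 samples, at 1.34, 0.44, 0.77, 2.82, 1.85 and 0.92 TPM.

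Mirg, the miRNA-containing gene at the far end of the noncoding run, was at 19.97, 14.59, 14.2, 14.93, 13.94 and 11.14 TPM in WT. In HetKO it was at 15.55, 6.6, 12.51, 15.05, 7.42 and 12.21 TPM, and the samples other than 2 and 5 fell inside the WT range. In HM it was at 0.19, 0, 0.19, 0.34, 0 and 0.05 TPM, below every sample of the other lines.

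HM was compared with WT, from which it differs in the hotspot change, the truncated allele and clonal history at once. Values were tested with limma on log2(TPM + 1) over the 14043 genes whose mean TPM reached 1, and p-values were adjusted over all of them (Benjamini-Hochberg). In this comparison 32.0% of the genes tested were called lower and 19.4% higher, and in 18% every HM sample was below every WT sample. Meg3, Rian, Mirg and Dlk1 passed the filter on low values and Rtl1 and Dio3 did not. Meg3, Mirg and Dlk1 passed it only through WT, where they were high, so that the number of cluster genes called lower was set by the filter and is no result. Each of these genes was called lower, with no overlap between the lines. By size, Meg3 had the lowest log2 fold change of all genes tested and Rian the next lowest.

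Meg3 differed by -8.10 (SE 0.06, adjusted p = 6.07e-18) on the log2(TPM + 1) scale, a size that the pseudocount sets because HM is at or near 0. Rian differed by -7.45 (SE 0.19, adjusted p = 3.38e-11), and its mean TPM was 288-fold lower in HM. Mirg differed by -3.80 (SE 0.13, adjusted p = 8.01e-10) and its mean TPM was 115-fold lower. Over the settings tried, Meg3 stayed at rank 1 and Rian at rank 2, and Mirg ranked between 6 and 11.

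Few abundant genes were lost to this extent. Of 1490 genes with a WT mean of at least 100 TPM, only Meg3 and Rian had an HM mean below 1% of the WT mean, and in HetKO the number was 0. Of 8591 genes with a WT mean of at least 10 TPM, 11 fell below 1% in HM, Mirg among them, and 8 did so in HetKO, none of which was a cluster gene. The 8 in HetKO included the Y-linked genes Ddx3y, Eif2s3y, Kdm5d and Uty, which were not among the 11 in HM. Genes that every cell uses were well above 0 in the same libraries, with Actb between 889.71 and 1546.01 TPM and Hprt between 135.42 and 302.87.

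HM was also compared with HetKO, its parental clone, over 13762 genes, of which 20.6% were called lower and 14.0% higher. In 9.27% every HM sample lay below every HetKO sample. The Y-linked genes named above were lost in HetKO and not in HM, so these HetKO samples may not match the cells from which HM was made. The 3 maternal noncoding RNAs were again called lower with no overlap. Meg3 and Mirg passed the filter only through HetKO, where they were high, so the number called is again no result. Meg3 differed by -7.15 (SE 0.32, adjusted p = 8.03e-09), Rian by -6.66 (SE 0.34, adjusted p = 2.59e-08) and Mirg by -3.42 (SE 0.20, adjusted p = 9.71e-08). Meg3 and Rian had the lowest and next lowest log2 fold changes here too. Without HetKO samples 2 and 5 the values were -7.71 (adjusted p = 1.85e-13), -7.17 (adjusted p = 1.22e-08) and -3.72 (adjusted p = 1.98e-08). The comparisons share lines, HM above and WT or HetKO below, so they are not independent of each other.

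HetKO was compared with WT, from which it differs in the loss of 1 Dicer1 allele and in clonal history. Of 13999 genes tested, 6.44% were called lower and 3.71% higher, and in 5.14% every HetKO sample lay below every WT sample. Dlk1, which entered the test only through its WT level, was called lower and is described with the paternal genes. Mean TPM was 1.71-fold lower for Meg3, 1.55-fold lower for Rian and 1.28-fold lower for Mirg, and none of the 3 passed. Meg3 had a log2 fold change of -0.95 (SE 0.32, adjusted p = 0.0759), Rian of -0.79 (SE 0.29, adjusted p = 0.0985) and Mirg of -0.37 (SE 0.20, adjusted p = 0.246).

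For Meg3 and Rian the HetKO and WT samples nevertheless did not overlap, and an exact two-sided permutation test of each single gene gave 0.00216, the smallest p that 6 against 6 samples can give, without adjustment over genes. For Mirg the exact test gave p = 0.139. HetKO samples 2 and 5 widened the spread that limma used. Without them the differences were smaller and the spread tighter: Meg3 passed at -0.40 (adjusted p = 0.00104), Rian passed at -0.28 (adjusted p = 0.0294) and Mirg did not pass at -0.08 (adjusted p = 0.786). With the means of sample pairs as replicates neither Meg3 nor Rian passed (limma adjusted p = 0.497 and 0.525). Neither passed in an unequal-variance fit (adjusted p = 0.195 and 0.219).

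**Figure D3:**
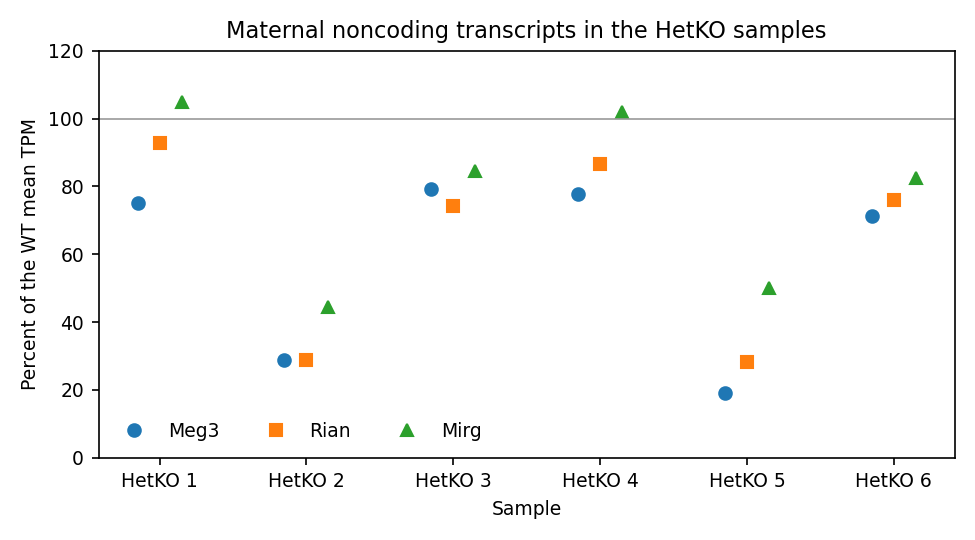
TPM of Meg3 (circles), Rian (squares) and Mirg (triangles) in each HetKO sample as a percent of the WT mean (vertical axis; grey line at 100). Samples 2 and 5 lie between 19.2% and 50.2%, and the other 4 lie at 71.4% or above for each gene.

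The 3 noncoding RNAs went down together in HetKO samples 2 and 5, though not to the same level. Sample 2 kept 28.8% of the WT mean of Meg3, 28.9% of Rian and 44.6% of Mirg. Sample 5 kept 19.2%, 28.3% and 50.2%. Samples 1 and 4 had Mirg at 105% and 102% of the WT mean while Meg3 was at 75.2% and 77.8%. The marker sums that set samples 2 and 5 apart moved with these levels, and their part in them was not tested.

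The proportions of the 3 RNAs were steady in WT. Meg3 made up 40.4% ± 1.28 of their summed TPM, Rian 57.5% ± 1.2 and Mirg 2.16% ± 0.306 (SD, n = 6). In HetKO the shares were 37.4% ± 3.83, 59.6% ± 3.31 and 2.97% ± 0.754, and without samples 2 and 5 they were 38.4% ± 2.69, 59.1% ± 2.58 and 2.54% ± 0.141 (n = 4). Meg3 over Rian ranged from 0.675 to 0.769 in WT and from 0.478 to 0.75 in HetKO. Meg3 over Mirg ranged from 14.5 to 22.7 and from 7.11 to 17.3, and Rian over Mirg from 21.6 to 33.3 and from 14.9 to 24.3.

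Ratios were tested on the log2 scale with exact two-sided permutation tests. Of 12 ratios in 3 comparisons, 3 had both genes above 0 in every sample with line means that reached 1 TPM, all in HetKO against WT, and p was adjusted over these. Meg3 over Mirg had a mean log2 ratio of 3.68 ± 0.46 in HetKO and 4.23 ± 0.22 in WT, a difference of -0.55 (exact p = 0.0108, adjusted 0.0195). Rian over Mirg was 4.36 ± 0.29 and 4.74 ± 0.20, a difference of -0.38 (exact p = 0.013, adjusted 0.0195). Meg3 over Rian, at -0.68 ± 0.23 and -0.51 ± 0.07, did not pass with a difference of -0.17 (exact p = 0.115, adjusted 0.115). Without HetKO samples 2 and 5 none of the 3 passed: the differences were -0.31 for Meg3 over Mirg (exact p = 0.0476, adjusted 0.1), -0.20 for Rian over Mirg (exact p = 0.0667, adjusted 0.1) and -0.11 for Meg3 over Rian (exact p = 0.167). With the means of sample pairs as replicates, where 3 against 3 cannot go below 0.1, both ratios to Mirg had an exact p of 0.2.

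**Figure D4:**
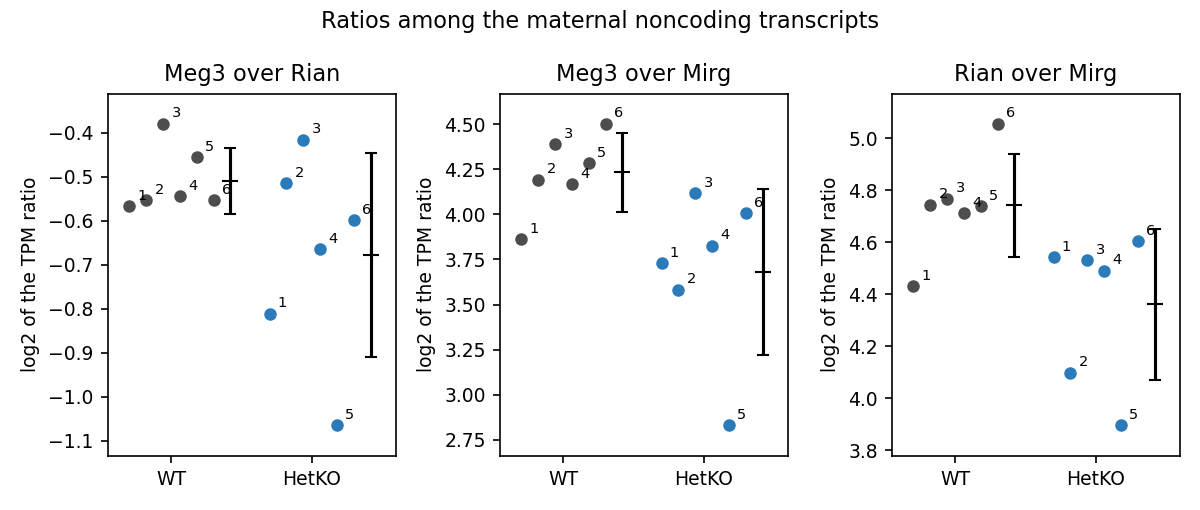
log2 of the TPM ratio (vertical axes, each with its own range) of Meg3 to Rian, Meg3 to Mirg and Rian to Mirg in WT and HetKO; points are samples with their replicate numbers, and the dash and bar are mean and SD (n = 6). HetKO sample 5 has the lowest value in all 3 panels, and the mean of HetKO lies below that of WT in each.

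In HM the ratios of the noncoding RNAs were not tested, since Meg3 and Mirg were at 0 in some samples, and they are given as description. What remained was mostly Rian, with 79.4% to 100% of the summed maternal TPM. Rian over Mirg could be formed in 4 HM samples, with Mirg at 0.05 to 0.34 TPM, and ranged from 4.05 to 18.4, beside 21.6 to 33.3 in WT. In HM samples 2 and 5, Mirg was at 0 and Rian at 0.44 and 1.85 TPM, so the ratio has no upper limit there. No shift against WT is read from these values. Meg3 over Rian was 0 in 5 samples and 0.013 in the other.

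Among the paternal genes, Dlk1 was the only one with a mean above 1 TPM in any line. In WT it was at 5.45, 1.08, 1.03, 2.78, 0.57 and 1.49 TPM, so that samples 1 and 4 stood above the rest. In HetKO it was at 0.33, 0, 0.28, 0, 0 and 0.07 TPM, and in HM at 0.12, 0, 0, 0.05, 0.55 and 0.06. Every HetKO and HM sample lay below every WT sample, although the highest HM sample, at 0.55, was next to the lowest WT sample, at 0.57. The log2 fold change was -1.28 (SE 0.30, adjusted p = 0.00316) in HM against WT and -1.30 (SE 0.30, adjusted p = 0.0153) in HetKO against WT. With 2 HM and 3 HetKO samples listed at 0, no fold of the means is given. Between HM and HetKO no difference was detectable by an exact permutation test (p = 0.913), with both near 0. The HetKO call was lost without HetKO samples 2 and 5 (-1.23, adjusted p = 0.0601) and in an unequal-variance fit (adjusted p = 0.0754). With the means of sample pairs as replicates both calls were lost (adjusted p = 0.0529 in HM and 0.314 in HetKO).

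Rtl1 was at 0.08, 0.11, 0.14, 0.22, 0.07 and 0.14 TPM in WT, at 0.04, 0.02, 0.01, 0.1, 0.01 and 0.06 in HetKO, and at 0.16, 0.15, 0.19, 0.39, 0.45 and 0.39 in HM. HM and HetKO did not overlap, while WT overlapped both. Dio3 was at 0.42, 0.16, 0.19, 0.35, 0.24 and 0.22 TPM in WT, at 0.24, 0, 0.04, 0.23, 0.06 and 0 in HetKO, and at 0.14, 0.84, 0.44, 0.27, 0.34 and 0.61 in HM, with overlap between all lines. Neither gene reached the filter on low values, so neither was tested in the main fits.

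Fitted without that filter, Rtl1 was higher in HM than in HetKO by 0.30 (adjusted p = 0.00677) and Dio3 by 0.38 (adjusted p = 0.033) on the log2(TPM + 1) scale. Against WT, neither passed in HM (Rtl1 0.19, adjusted p = 0.0534; Dio3 0.17, adjusted p = 0.28) or in HetKO (Rtl1 -0.11, adjusted p = 0.0801; Dio3 -0.21, adjusted p = 0.116). Unadjusted exact permutation tests gave 0.00216 for Rtl1 and 0.00866 for Dio3 in HM against HetKO, 0.0238 and 0.156 in HM against WT, and 0.00866 and 0.0303 in HetKO against WT. All of these levels are fractions of 1 TPM, at which depth is not known to separate transcription from stray reads.

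Set beside each other, the maternal and paternal genes came closer in scale in HM. In WT the order by mean TPM was Rian, Meg3, Mirg, Dlk1, Dio3 and Rtl1, and only Dio3 and Rtl1 overlapped as neighbours in it. HetKO had the same order, but there Rian overlapped Meg3, and Dlk1, Dio3 and Rtl1 overlapped each other. In HM it was Rian, Dio3, Rtl1, Dlk1, Mirg and Meg3, with all neighbours overlapping. Summed maternal TPM was 634 to 741 in WT, 171 to 584 in HetKO and 0.44 to 3.16 in HM. Summed paternal TPM was 0.88 to 5.95, 0.02 to 0.61 and 0.42 to 1.34. The maternal sum was therefore 125 to 748 times the paternal sum in WT, 958 to 9940 times in HetKO and 0.444 to 4.45 times in HM.

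The ratios to Rtl1 and Dlk1 given here had their highest medians in HetKO. For Dio3 the HetKO medians leave out samples 2 and 6, where Dio3 was at 0 and the ratio has no upper limit. Those medians therefore understate the ratio and are not ranked against WT. Rian over Rtl1 was 1780 to 5380 in WT, 3380 to 28900 in HetKO and 2.36 to 8.38 in HM. Rian over Dio3 was 1030 to 2440 in WT (median 1620), 1470 to 7230 in the 4 HetKO samples in which Dio3 was above 0 (median 1670) and 0.524 to 10.4 in HM. Meg3 over Dio3 was 692 to 1670 in WT (median 1140) and 860 to 5420 in the same 4 HetKO samples (median 904). Mirg over Rtl1 was 67.9 to 250 in WT, 150 to 1250 in HetKO and at most 1.19 in HM. Meg3 over Dlk1 was 53.3 to 476 in WT and 626 to 2800 in the 3 HetKO samples in which Dlk1 was above 0. The high HetKO values rest on denominators of under 1 TPM and are given as description.

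Other transcripts inside the cluster were few. Of 112 further rows between the start of Dlk1 and the end of Dio3, 104 were at 0 in all 18 samples. Gm26945, a long intergenic noncoding row inside the span of Rian on the same strand, had a mean of 1.19 TPM in WT (0.4 to 1.77), 0.797 in HetKO (0.17 to 1.28) and 0.00667 in HM (0 to 0.04), and its reads may be shared with Rian. Without the filter it was lower in HM than in WT by 1.08 on the log2(TPM + 1) scale (log2 fold change -1.08, adjusted p = 0.000355). Gm3379, a processed pseudogene that may share reads with its parent gene, was at 1.03, 1.04 and 0.93 TPM in WT, HetKO and HM and did not pass. Gm26906, annotated on the strand opposite the end of Meg3, was at 0 in all samples.

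No tested gene outside the cluster within 6 Mb of Meg3 had a change as large as those of Meg3, Rian and Mirg in HM against WT. In HM against WT, the nearest tested genes before Dlk1 were Begain, 385 kb away, at -0.03 (adjusted p = 0.896), Wdr25 at -0.03 (adjusted p = 0.895) and Wars, a tRNA synthetase, at 0.31 (adjusted p = 0.00384). The nearest after Dio3 were Gm6988, 35 kb away, at -0.04 (adjusted p = 0.959), Ppp2r5c, a regulatory subunit of protein phosphatase 2A, at -0.27 (adjusted p = 0.00101), and Gm19605 at 0.05 (adjusted p = 0.754). In HetKO against WT none of the 6 passed. Of the 27 genes tested between Dicer1 and Dlk1 in HM against WT, 6 were lower and 6 higher, with a median log2 fold change of -0.01. Of the 64 tested beyond Dio3, 21 were lower and 15 higher, with a median of -0.02. Inside the cluster the tested genes are those described above. Rtl1 and Dio3, which were not tested there, had HM means above their WT means. The median over all genes was -0.09.

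**Figure D5:**
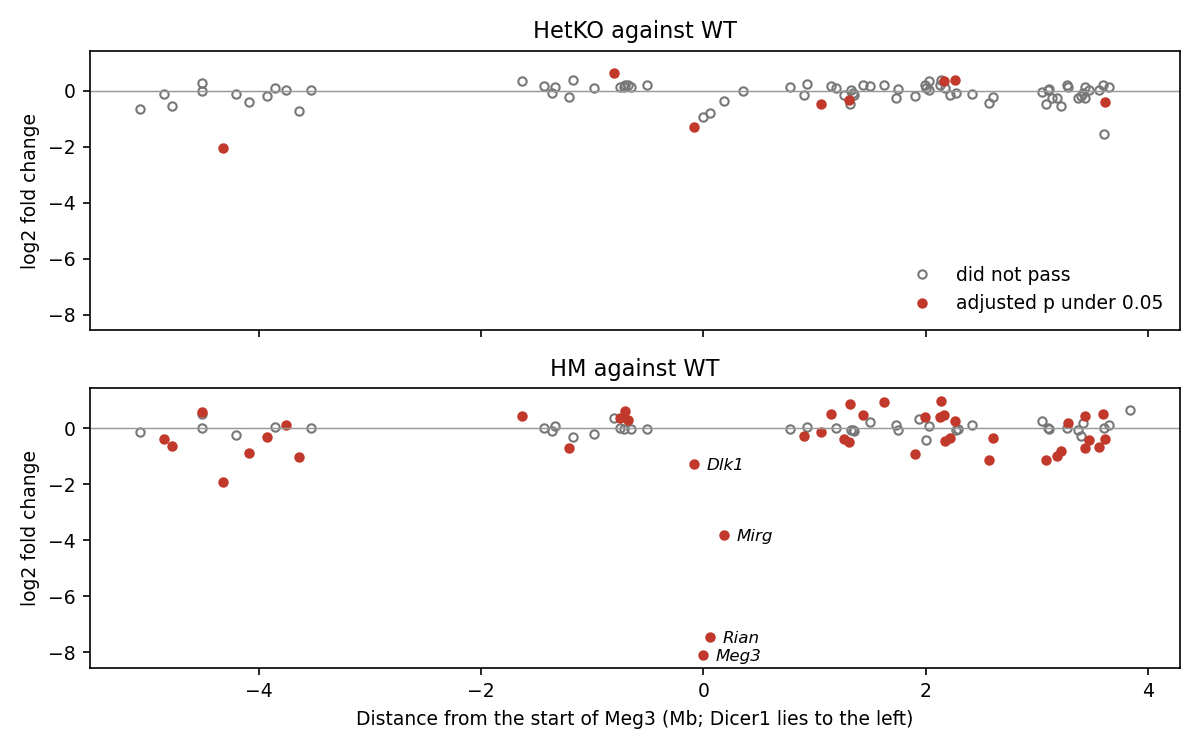
log2 fold change on the log2(TPM + 1) scale (vertical axis) against distance from the start of Meg3 in Mb (horizontal axis) for tested genes within 6 Mb, in HetKO against WT (top, 84 genes) and HM against WT (bottom, 86 genes); filled points passed at an adjusted p under 0.05. In the lower panel the genes outside the cluster lie between -1.91 and 0.97, and Meg3, Rian and Mirg lie below all of them.

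The genes whose pattern over the 18 samples was closest to that of Meg3 were found by the mean absolute difference of standardised log2(TPM + 1), over 13954 genes. Rian was closest (0.0591), then Zkscan7 on chromosome 9 (0.0604), Mirg (0.0864), Tsnax on chromosome 8 (0.119) and Dync1i2 on chromosome 2 (0.127). Zkscan7, a zinc finger gene, went from 5.80 TPM in WT and 4.65 in HetKO to 0.01 in HM. Tsnax, which encodes translin-associated factor X, went from 49.3 and 52.8 to 0.167. Dync1i2, a dynein intermediate chain, went from 80.2 and 74.1 to 32.0. Since they were chosen for their likeness to Meg3, their lower level in HM is a description.

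The machinery that keeps imprints was measured through 19 genes. In HM against WT, 6 were higher and 3 lower, with a median of 0.05, beside 19.4% and 32.0% of all genes. With centring on sample medians 8 were higher and 2 lower, with a median of 0.23. In HetKO against WT 1 of 19 was lower and 0 higher (6 and 0 by limma at an unadjusted p under 0.05), and in HM against HetKO 1 of 18 was lower and 6 higher. Over all genes, 6.44% were lower and 3.71% higher in HetKO against WT, and 20.6% and 14.0% in HM against HetKO. Trim28, the corepressor recruited by imprint-protecting zinc finger proteins, was higher by 0.45 (660 ± 63.5 TPM in WT, 910 ± 178 in HM, adjusted p = 0.00531). Eed, a Polycomb subunit, was higher by 0.54 (adjusted p = 2.47e-05), and Tet1, which oxidises methylated cytosine, by 0.32 (adjusted p = 0.00373). Ezh2 and Suz12, further Polycomb subunits, were lower, at -0.33 (adjusted p = 0.000614) and -0.32 (adjusted p = 0.00291). Zfp57, which binds methylated imprinting control regions, stood at 49.1, 41.9 and 43.9 TPM in WT, HetKO and HM and did not pass in any comparison. Dnmt1, the maintenance methyltransferase, stood at 105, 106 and 104 TPM. Its partner Uhrf1 was lower in HM than in WT, at 108 ± 3.58 against 126 ± 8.41 TPM (-0.22, adjusted p = 0.00235).

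Dnmt3l, a cofactor of de novo methylation, and Aff3, which binds the control region of this cluster, were the members of that list with the widest contrast between HM and HetKO. Dnmt3l was at 8.90 ± 9.12 TPM in WT, 0.913 ± 0.38 in HetKO and 22.3 ± 23.4 in HM, lower in HetKO than in WT (-1.89, adjusted p = 0.0296) and higher in HM than in HetKO (3.15, adjusted p = 0.000402). Without HetKO samples 2 and 5 the first of these did not pass (-1.70, adjusted p = 0.11) and the other did (2.97, adjusted p = 0.00176). Its spread in WT and HM was as large as its mean. Dnmt3l passed the filter on low values only through WT or HM, where it was high, so both calls are given as description. Aff3 was at 9.51 ± 0.87, 6.97 ± 2.26 and 12.9 ± 1.12 TPM and was higher in HM than in HetKO by 0.84 (adjusted p = 0.00251), and by 0.62 (adjusted p = 0.00267) without HetKO samples 2 and 5. Against WT, HM was higher by 0.40 (adjusted p = 0.00116).

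Imprinted genes of other chromosomes included genes called in each direction. Against the 32.0% lower and 19.4% higher over all genes, of 12 maternally expressed genes tested in HM against WT, 4 were lower and 2 higher, and of 17 paternally expressed ones 6 were lower and 6 higher. With centring on sample medians the counts were 2 lower and 2 higher, and 1 lower and 8 higher, and with quantile normalization 3 and 3, and 2 and 7, so the balance moves with the scaling. In HetKO against WT the counts as deposited were 1 lower and 2 higher of 13, and 1 lower and 0 higher of 17 (3 and 3 by limma at an unadjusted p under 0.05). Over all genes, 6.44% were lower and 3.71% higher there. Igf2r, the receptor that clears IGF2, was at 4.75 ± 4.41 TPM in WT, 0.145 ± 0.11 in HetKO and 16.2 ± 1.13 in HM, lower in HetKO than in WT (-2.01, adjusted p = 0.00573) and higher in HM than in WT (1.90, adjusted p = 0.00106). Grb10, an adaptor that restrains insulin signalling, was at 14.3 ± 7.1 TPM in WT, 179 ± 21.9 in HetKO and 16.6 ± 10.2 in HM (3.68 in HetKO against WT, adjusted p = 1.67e-06). Without HetKO samples 2 and 5, Igf2r in HetKO against WT was -1.92 (adjusted p = 0.0294) and Grb10 was 3.58 (adjusted p = 4.77e-05). Igf2r passed the filter in that comparison only through WT, where it was high, so its call there is description. Cdkn1c, a cell cycle inhibitor, was lower in HM than in WT (-1.14, adjusted p = 0.000514). H19, another maternal noncoding RNA, was at 16.4 ± 6.09 TPM in WT and 8.92 ± 7.06 in HM (-1.05, adjusted p = 0.0466). Of the paternally expressed genes, Inpp5f rose in HM against WT (1.46, adjusted p = 2.48e-09), as did Usp29 (1.28, adjusted p = 7.31e-05). Nnat was listed at 0 in all HM samples, and its WT level of 4.73 ± 6.52 TPM varied more than its mean. It entered the test only through WT.

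The pathways of the paternal proteins were read through the Notch list (30 genes, with ligands, receptors, processing enzymes and targets) and the thyroid hormone list (19 genes). In HM against WT, 11 of 25 Notch genes tested were lower and 0 higher (12 and 0 by limma at an unadjusted p under 0.05), with a median of -0.17, against the 32.0% and 19.4% over all genes. The receptors Notch1 (8.23 ± 1.22 to 3.57 ± 0.719 TPM, log2 fold change -1.02, adjusted p = 4.28e-05) and Notch3 (-1.05, adjusted p = 5.66e-05) fell, and so did Mfng (-1.22, adjusted p = 9.6e-05), a glycosyltransferase that modifies the receptors. With centring on each sample's median the counts were 6 lower and 1 higher, and the median was 0.01. In HetKO against WT, 2 of 26 were lower and 1 higher, beside 6.44% and 3.71% of all genes. Aph1a, a gamma-secretase subunit, rose (0.76, adjusted p = 0.000568) and Adam17, a shedding protease, fell (-0.26, adjusted p = 0.0121).

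Of 13 thyroid hormone genes tested, 5 were lower and 1 higher in HM against WT, with a median of -0.15, beside 32.0% and 19.4% of all genes. With centring on sample medians 3 were lower and 1 higher. The receptor Thra fell (-0.54, adjusted p = 0.00222). In HetKO against WT, 0 of 13 passed in either direction by limma, and at an unadjusted p under 0.05 there were 4 lower and 1 higher. In HM against HetKO, 5 of 25 Notch genes were lower and 0 higher (8 and 1 by limma at an unadjusted p under 0.05), and 4 of 13 thyroid hormone genes were lower and 1 higher. With centring on sample medians the counts became 2 lower and 2 higher, and 1 lower and 3 higher, and with quantile normalization 3 and 0, and 3 and 3. Without HetKO samples 2 and 5 they were 11 and 0, and 5 and 2. Calls over all 13762 genes tested rose there too, from 2839 lower (20.6%) and 1926 higher (14.0%) to 3887 and 2560. These counts are descriptions, and nothing particular to a list is read from them. With centring on sample medians, 61.0% of all calls in HM against WT were higher, and 51.1% with quantile normalization, against 37.7% as deposited. In HetKO against WT the shares were 50.7%, 48.1% and 36.5%, and in HM against HetKO 60.9%, 49.3% and 40.4%. The 3 maternal noncoding RNAs were lower in HM under each scaling.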

How the data were processed

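The deposited table held TPM values per gene and sample, which the authors made from poly(A) RNA (stranded mRNA libraries, paired-end) by merging read pairs with BBMerge and quantifying with RSEM. STAR, cutadapt and mm10 are named in the submitters' processing notes. TPM is relative to the total of a sample, so a change in a few abundant genes shifts all others, and read depth is not given. All 18 columns were used.

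Groups came from the labels. log2(TPM + 1) was tested with limma 3.58.1 (R 4.3.3; trend, genes whose mean TPM in a comparison, over 12 samples, reached 1, Benjamini-Hochberg adjusted p under 0.05). On simulated data for HM against WT 186 of 200 genes with a 2-fold change were found and 13 others called, among 14043. Ratios, and single members as an alternative added after seeing the data, were tested by exact permutation. Shares, lists and list genes without HetKO samples 2 and 5 were also added after seeing the data. The text names the 6 members, Dicer1, other cluster rows with a mean of at least 1 TPM in a line, the 3 tested genes nearest on each side, up to 4 genes of each list with the largest changes, and the 5 genes nearest to Meg3 in pattern. Tet1, Ezh2, Suz12, Zfp57, Dnmt1, Uhrf1 and the Y-linked genes were chosen after their values were seen. Members and lists were chosen with earlier results of these data known. Sequences are from RefSeq (GRCm38.p6). 1 gene that the naming rule picks is not reported here. No protein sequences were used here.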

Additional observations from a re-analysis of the deposited data

Results flagged for a closer look

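The 6 members in each line and the 3 tested ratios in WT and HetKO gave 24 groups of 6 samples. In 3 of these the highest sample's gap to the next, over the whole range, was above Dixon's 95% critical value, where chance gives about 1.2. Dlk1 in HM was 0.55 TPM in sample 5, next to 0.12 (gap over range 0.782). Meg3 in HM was 0.01 TPM in sample 3, with the other 5 at 0 (1.0). Rian in WT was 430.59 TPM in sample 1, next to 391.2 (0.656).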

How the results depend on the processing

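Meg3, Rian and Mirg remained lower in HM against WT under all 10 alternatives (log2 fold change -11.4 to -7.92, -8.28 to -7.21 and -6.23 to -3.61) and against HetKO under all 11. No cluster gene or ratio turned its direction. With the means of sample pairs (WT and HetKO 1 and 4, 2 and 5, 3 and 6; HM 1 and 4, 2 and 3, 5 and 6) as replicates, the genes called were 3316 instead of 7220 in HM against WT, 34 instead of 1421 in HetKO against WT and 417 instead of 4765 in HM against HetKO. Dlk1 then did not pass in HM (-1.30, adjusted p = 0.0529) or HetKO (-1.32, adjusted p = 0.314), Meg3 over Mirg was -0.53 and Rian over Mirg -0.37 (exact p = 0.2 each, where 0.1 is the smallest possible), with fewer samples entering. An unequal-variance fit called 852 genes in HetKO against WT, and Dlk1 did not pass there (adjusted p = 0.0754); the cause was not tested. One fit of all 3 lines brought Meg3 in HetKO past the threshold (-0.95, adjusted p = 0.0328). Neither Meg3 nor Rian passed in HetKO with pair means or with the unequal-variance fit. Without HetKO samples 2 and 5, Rian over Mirg was -0.20 (exact p = 0.0667) and, adjusted over the 3 ratios, Meg3 over Mirg did not pass either (0.1). Same-numbered samples did not deviate together (mean r 0.00512, 0.0621 and 0.0206), so the numbers pair nothing; with the replicate block 6889, 1206 and 4200 genes were called and Rian over Mirg, at -0.38, did not pass (exact p = 0.0625). Median centring moved the median over all genes in HM against WT from -0.09 to 0.08 and quantile normalization to 0.02, which turns its sign, and the called split from 2722 higher and 4498 lower to 4508 and 2879, and to 3632 and 3479. Below 1 TPM, with no counts, the precision of Rtl1, Dio3 and Dlk1 is unknown.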
